A study of Rattus norvegicus with 8 samples.

Results

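The glycolytic enzymes described here are Aldoa, Eno1, Gapdh, Ldha, Ldhb, Pgam1, Pkm and Tpi1, measured with 8 one-colour oligonucleotide arrays in rat medial collateral ligament, a band that steadies the inner side of the knee. Members were the probe sets, other than array controls, whose only gene symbol in the array's probe table was one of these 8 genes. There were 9 such probe sets among 8799 in all, and they stood for 5 of the 4736 genes that had a probe set of their own: 1 for Aldoa, 2 for Eno1, 2 for Ldhb, 3 for Pgam1 and 1 for Pkm. Gapdh, Ldha and Tpi1 had no probe set of their own, because the 1 probe set of each also carried other symbols. Those 3 probe sets were not used, and Gapdh is given through the array's own rat GAPDH control probe sets.

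The arrays fell into 4 groups of 2, all dissected at 3 weeks. Unloaded healing rats had both medial collateral ligaments disrupted and were put on hindlimb unloading by tail suspension 24 h after surgery. Loaded healing rats had the same bilateral disruption and bore weight. Unloaded control rats were tail-suspended without sham surgery, and loaded control rats had sham surgery and bore weight. Loading and sham surgery therefore cannot be told apart between the control groups. The labels used here give no strain, sex or age, and leave unsaid if a group's arrays came from separate animals, pools or repeats of 1 sample, so that p-values reflect only array-to-array spread, possibly technical.

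Glycolysis splits glucose into pyruvate in the cytosol and yields ATP without oxygen. Aldolase and triose-phosphate isomerase produce and interconvert 3-carbon sugars, glyceraldehyde-3-phosphate dehydrogenase oxidises them, phosphoglycerate mutase and enolase rearrange the product, pyruvate kinase makes pyruvate and ATP, and lactate dehydrogenase converts pyruvate and lactate into each other. Many of these genes are known targets of the hypoxia-inducible factor HIF-1. Ligament is sparsely vascularised, and Gapdh is often used as a reference gene for RNA amounts.

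The regions just before the transcription starts of Eno1 and Pgam1 are shown because probe sets of both genes rose and fell in the same comparisons. That of Gapdh is shown beside them because its control probe sets went the opposite way to those probe sets. Each window holds the 250 bases before an annotated start, 5′ to 3′, from RefSeq for rat build GRCr8. Capitals mark every match, on either strand, to ACGTG or GCGTG, the core letters of HIF-1 binding sites (CACGT and CACGC on the opposite strand).
Eno1 start 1, chr5:166002617-166002866, plus strand: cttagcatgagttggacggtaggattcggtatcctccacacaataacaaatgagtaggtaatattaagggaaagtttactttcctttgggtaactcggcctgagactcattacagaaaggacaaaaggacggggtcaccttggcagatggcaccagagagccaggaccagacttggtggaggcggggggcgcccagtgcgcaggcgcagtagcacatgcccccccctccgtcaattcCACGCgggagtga
Eno1 start 2, chr5:166003111-166003360, plus strand: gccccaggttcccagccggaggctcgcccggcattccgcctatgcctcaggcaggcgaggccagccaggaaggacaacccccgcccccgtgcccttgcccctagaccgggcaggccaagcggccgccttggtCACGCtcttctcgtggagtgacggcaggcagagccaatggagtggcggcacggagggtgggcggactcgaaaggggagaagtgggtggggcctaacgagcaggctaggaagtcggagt
Pgam1 start 1, chr1:250672902-250673151, plus strand: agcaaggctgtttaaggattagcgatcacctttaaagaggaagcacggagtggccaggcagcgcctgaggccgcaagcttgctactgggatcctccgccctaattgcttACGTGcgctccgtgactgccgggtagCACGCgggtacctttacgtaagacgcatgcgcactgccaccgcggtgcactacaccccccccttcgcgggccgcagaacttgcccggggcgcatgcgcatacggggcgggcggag
Gapdh start 1, chr4:159652468-159652717, minus strand: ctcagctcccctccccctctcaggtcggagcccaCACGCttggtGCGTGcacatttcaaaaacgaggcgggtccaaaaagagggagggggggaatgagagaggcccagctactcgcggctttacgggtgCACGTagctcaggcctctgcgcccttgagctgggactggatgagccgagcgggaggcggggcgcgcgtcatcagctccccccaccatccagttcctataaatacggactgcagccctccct
Both Eno1 windows held 1 GCGTG each and 0 ACGTG, the Pgam1 window held 1 of each, and the Gapdh window held 1 ACGTG and 2 GCGTG. All 8 genes matched the promoter table, with 11 windows, of which 7 held either motif. Of all 33465 rat windows of the same length, 16.6% held ACGTG, 25.9% held GCGTG and 36.7% held either, and the letters CACGTG count as a match on both strands. A match describes the letters and is not a measured binding site.

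Values are signal intensities per probe set, with array medians between 238.7 and 315.9. The 2 unloaded control arrays stood apart: across probe sets they correlated with the remaining 6 at a Pearson r of 0.492 to 0.608 on the log2 scale, against 0.761 to 0.872 among those 6. They also went against the tissue label, since the summed signal of 7 ligament fibroblast markers was 2311.3 to 2444.5 there, against 47015.4 to 62705.3 in unloaded healing, 102392.9 to 120067.8 in loaded healing and 83683.4 to 103851.7 in loaded controls. Every comparison with unloaded controls below rests on these arrays. In ligament RNA, fewer cells of a type and less RNA per cell cannot be told apart.

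Tests used limma on log2 of the intensity plus an offset of 45.8, fitted to all 8 arrays. The Benjamini-Hochberg adjustment ran over 5244 probe sets that passed a filter on mean signal, and a probe set was called when its adjusted p was below 0.05. The offset stays in the fold changes, so those of dim probe sets are understated. Of the 9 member probe sets 7 passed the filter, which removed the dimmest 40%. The 2 that did not pass were a second probe set of Ldhb, at the 38.1 percentile of mean signal, and a second of Eno1, at the 16.6 percentile, while the dimmest member that passed was that of Aldoa, at the 49.0 percentile. Levels are compared between groups within a probe set and never between probe sets.

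Loaded healing ligaments carried more enolase and phosphoglycerate mutase signal than sham-operated ligaments on 1 bright probe set of each gene. Of the 7 tested member probe sets 2 rose and 0 fell. Over all tested probe sets limma called 2.02% in this comparison, 1.03% higher and 0.992% lower. The other 5 members did not pass. The median log2 difference was 0.52 over the 7 members and -0.03 over all probe sets tested.

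Eno1, which encodes alpha-enolase, read 3983.5 and 3359.5 in unloaded healing, 9925.1 and 7294.1 in loaded healing, 2588.0 and 3438.0 in unloaded controls, and 3409.0 and 3650.8 in loaded controls on probe set X02610_g_at. Both loaded healing arrays lay above the other 6, and the other 3 groups overlapped one another. Eno1 rose 2.39-fold in loaded healing against loaded control (log2 1.26 ± 0.22 SE, limma adjusted p = 0.0186), with n = 2 arrays in each group for this and all later comparisons. The call was lost without any 1 of the 4 loaded arrays, with limma adjusted p between 0.0524 and 0.197, while the log2 difference stayed between 1.04 and 1.48. The dim second probe set of Eno1, X02610_at, read 52.7 and 73.7 in unloaded healing, 106.7 and 37.9 in loaded healing, 132.0 and 76.2 in unloaded controls, and 84.5 and 179.9 in loaded controls. Its loaded groups overlapped, and without the filter its log2 difference was -0.60 ± 0.48 (limma adjusted p = 0.800).

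Pgam1 encodes the phosphoglycerate mutase of most tissues other than mature muscle. On probe set S63233_g_at it read 1928.4 and 1977.2 in unloaded healing, 7996.0 and 6385.0 in loaded healing, 1804.5 and 1306.9 in unloaded controls, and 2030.3 and 2072.5 in loaded controls. Both loaded healing arrays lay above the other 6. Here Pgam1 rose 3.43-fold in loaded healing against loaded control (log2 1.78 ± 0.22, limma adjusted p = 0.00347), and without loaded healing 1 the log2 difference was 1.62 (adjusted p = 0.0566).

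The 3 probe sets of Pgam1 did not move together. Probe set rc_AI169417_s_at read 79.1 and 376.0 in unloaded healing, 914.1 and 712.5 in loaded healing, 216.4 and 82.1 in unloaded controls, and 299.7 and 272.8 in loaded controls. It too was highest on both loaded healing arrays, but its 2 unloaded healing arrays differed widely. Its log2 difference of 1.36 ± 0.66 in loaded healing against loaded control did not pass (limma adjusted p = 0.481). Probe set S63233_at, named for the same sequence record as the one that rose, read 6731.3 and 5691.3 in unloaded healing, 6889.9 and 5631.7 in loaded healing, 8524.5 and 7281.6 in unloaded controls, and 9091.7 and 7395.9 in loaded controls. It was lower in both healing groups than in both control groups, without overlap, and varied least of the 9 members, with a ratio of 1.61 between its highest and lowest array. Its log2 difference in loaded healing against loaded control was -0.39 ± 0.19 (limma adjusted p = 0.480, 95% interval -0.82 to 0.03). The intervals of the log2 difference for the 2 probe sets of that sequence record did not meet, since that of S63233_g_at ran from 1.28 to 2.28. Probe sequences were not used here, so which transcripts each probe set reads was not tested.

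**Figure D1:**
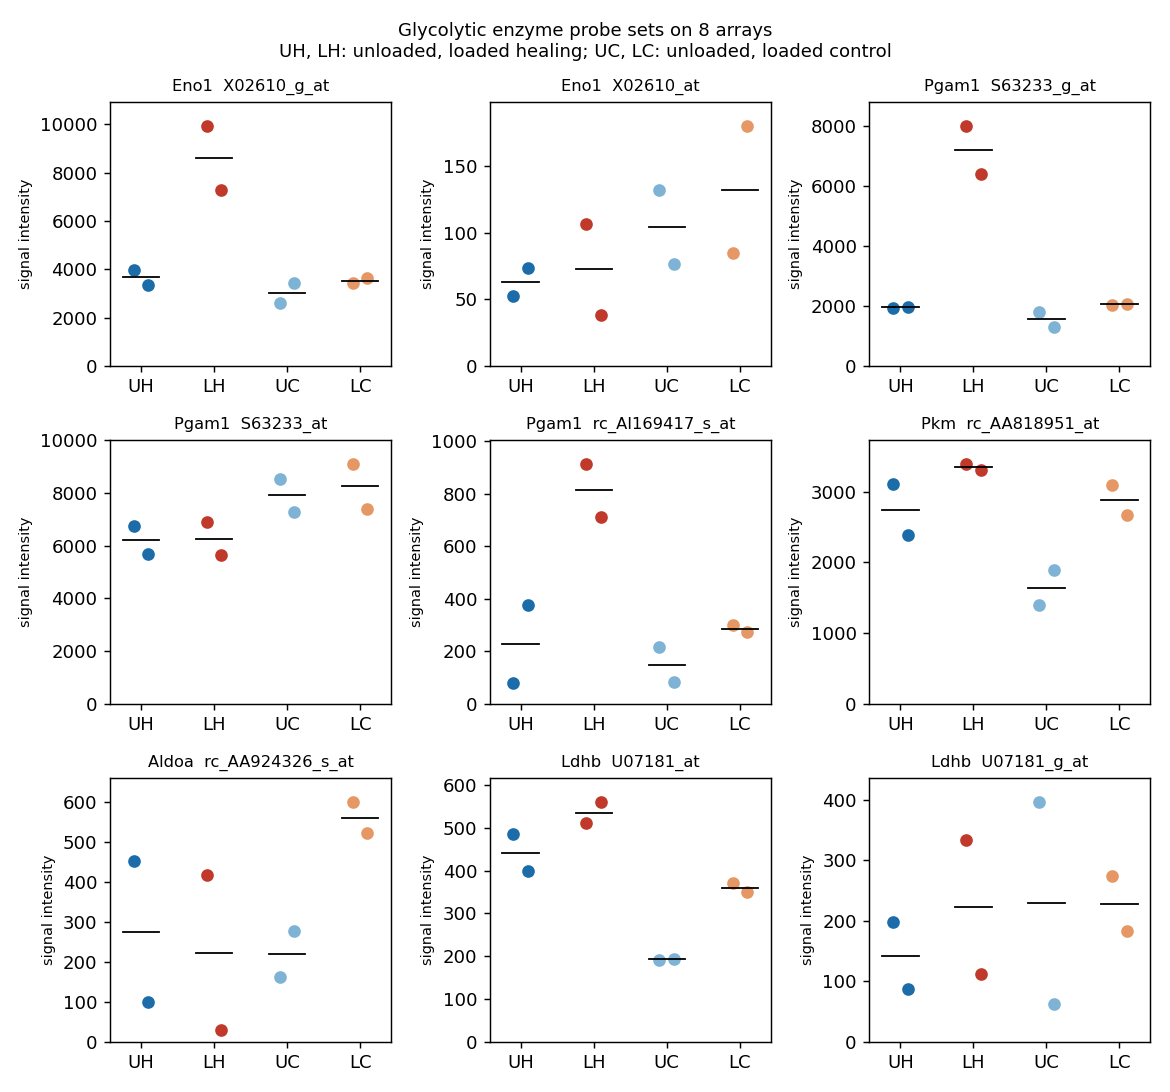
Signal intensity (linear axis from 0) of each of the 9 member probe sets on every array, with groups abbreviated UH (unloaded healing), LH (loaded healing), UC (unloaded control) and LC (loaded control), points for arrays and lines for group means. The loaded healing arrays stand above the other 6 for Eno1 X02610_g_at and for Pgam1 S63233_g_at and rc_AI169417_s_at, whereas Pgam1 S63233_at varies 1.61-fold in all.

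Pkm encodes the pyruvate kinase of most tissues other than liver and red cells. It read 3101.9 and 2384.3 in unloaded healing, 3390.5 and 3311.9 in loaded healing, 1390.6 and 1891.7 in unloaded controls, and 3095.8 and 2668.0 in loaded controls. The loaded healing arrays were above the loaded control arrays by less than the test could call (log2 0.22 ± 0.23, limma adjusted p = 0.841, 95% interval -0.30 to 0.74).

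Ldhb encodes the lactate dehydrogenase subunit that predominates in heart. On probe set U07181_at it read 485.8 and 398.0 in unloaded healing, 510.9 and 560.6 in loaded healing, 191.2 and 193.2 in unloaded controls, and 370.2 and 350.6 in loaded controls. The 4 groups did not overlap, in the order loaded healing, unloaded healing, loaded control, unloaded control, yet no step between groups passed the test. Loaded healing against loaded control gave a log2 difference of 0.52 ± 0.43 (limma adjusted p = 0.766). The second probe set, U07181_g_at, read 197.8 and 86.9 in unloaded healing, 332.6 and 112.5 in loaded healing, 396.2 and 62.8 in unloaded controls, and 273.6 and 182.7 in loaded controls. Its groups overlapped in every pair.

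Aldoa, the aldolase of muscle and most other tissues, read 453.2 and 98.1 in unloaded healing, 417.4 and 28.6 in loaded healing, 161.4 and 277.4 in unloaded controls, and 600.2 and 521.8 in loaded controls. Loaded controls were the highest group, and in each healing group 1 array read far below the other. The ratio of the highest to the lowest array was 21.0, the widest of the members. That lowest reading, 28.6 in loaded healing 2, lay below the offset of 45.8. The ratio and the difference in loaded healing therefore depend on 1 reading near the floor. The log2 difference in loaded healing against loaded control was -1.71 ± 0.88 and did not pass (limma adjusted p = 0.525), and leaving out 1 array at a time or changing the processing moved it between -3.02 and -0.39.

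The GAPDH control probe sets went the opposite way to Eno1 X02610_g_at and Pgam1 S63233_g_at in loaded healing. These controls read the 5′, middle and 3′ parts of the transcript. The 5′ control read 1606.6 and 1642.9 in unloaded healing, 757.1 and 722.4 in loaded healing, 1796.3 and 1625.9 in unloaded controls, and 2040.3 and 1845.0 in loaded controls. The middle control read 1642.4 and 1926.4 in unloaded healing, 975.6 and 866.7 in loaded healing, 1977.0 and 1545.9 in unloaded controls, and 1582.9 and 1723.1 in loaded controls. The 3′ control read 1948.0 and 1871.8 in unloaded healing, 1038.5 and 842.6 in loaded healing, 1885.6 and 2283.3 in unloaded controls, and 2277.5 and 2334.6 in loaded controls. On all 3 controls both loaded healing arrays lay below the other 6.

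When the controls were kept in the limma fit, a step added after the values had been seen, 2 of the 3 fell in loaded healing against loaded control. The 5′ control fell 2.53-fold (log2 -1.34 ± 0.23, limma adjusted p = 0.0180) and the 3′ control fell 2.40-fold (log2 -1.26 ± 0.23, adjusted p = 0.0236). The middle control had a log2 difference of -0.81 ± 0.25 and did not pass (adjusted p = 0.175). The direction held for the 3 controls under every scaling tried, but scaled to the spike-in controls the 5′ and 3′ differences were -0.95 (limma adjusted p = 0.205) and -0.87 (adjusted p = 0.239). Neither passed with median centring, without an intensity trend in the variance prior, or without any 1 of the 4 loaded arrays. The beta-actin controls were also lower in loaded healing, at 1353.1 and 1596.6 on the 3′ probe set, against 4393.3 and 4955.3 in loaded controls. Unlike the GAPDH controls, that probe set was also low in unloaded controls, at 1283.9 and 1493.7. In unloaded healing it read 4786.3 and 5235.2.

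The 5′/3′ ratio of the GAPDH controls, a sign of RNA and labelling quality, was 0.825 and 0.878 in unloaded healing, 0.729 and 0.857 in loaded healing, 0.953 and 0.712 in unloaded controls, and 0.896 and 0.790 in loaded controls. The groups overlapped in this ratio. For the beta-actin controls the 5′/3′ ratio was 0.529 and 0.338 in unloaded healing and 0.363 and 0.237 in loaded healing. It was 0.964 and 0.634 in unloaded controls, above all other arrays, and 0.36 and 0.392 in loaded controls. Companion probe sets for the opposite strand of GAPDH were not dark: their mean over 3 probe sets was 599.5 and 403.6 in unloaded healing, 504.2 and 392.7 in loaded healing, 1013.1 and 1226.8 in unloaded controls, and 617.9 and 569.6 in loaded controls. They were highest on the unloaded control arrays. The opposite-strand probe sets of the 5′ and 3′ parts also read lower in loaded healing than in loaded controls, at 181.9 and 225.8 against 418.2 and 574.3 for the 5′ part and at 379.5 and 136.3 against 408.3 and 479.0 for the 3′ part, while those of the middle part overlapped.

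**Figure D2:**
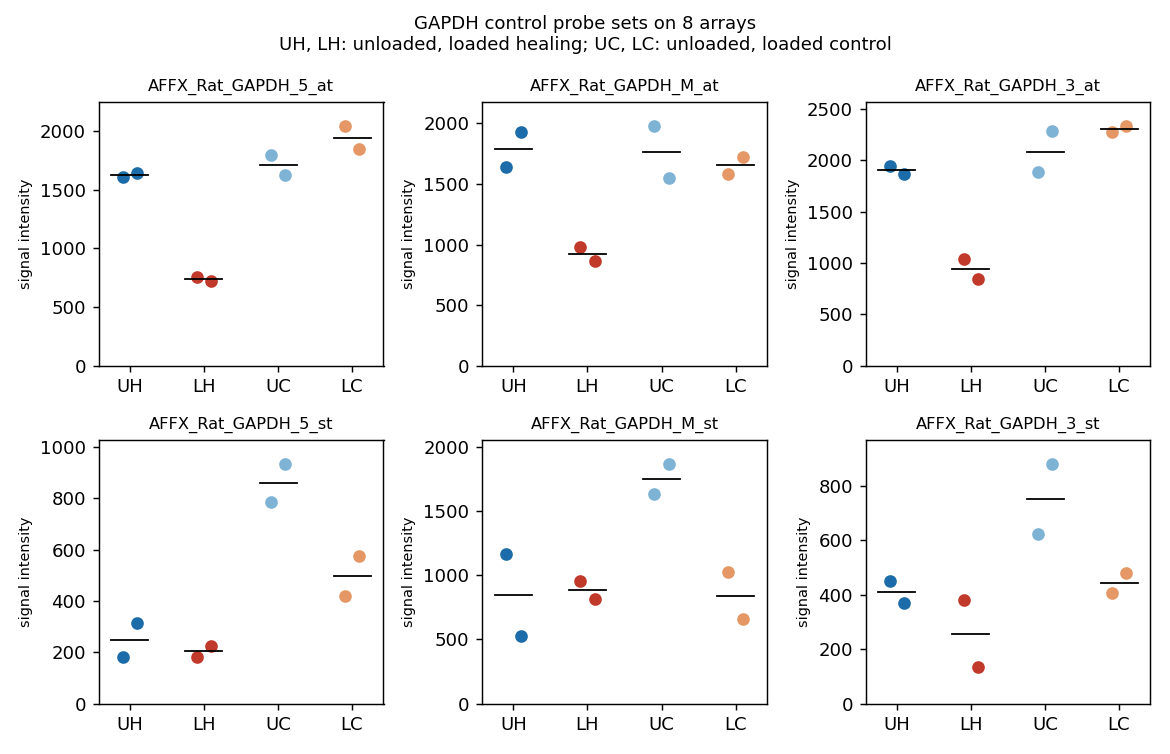
Signal intensity (linear axis from 0) of the GAPDH controls for the transcript (upper row) and for the opposite strand (lower row) on every array, with groups abbreviated UH (unloaded healing), LH (loaded healing), UC (unloaded control) and LC (loaded control), points for arrays and lines for group means. In the upper row both loaded healing arrays, at 722.4 to 1038.5, lie below all others, and in the lower row the unloaded controls are highest.

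Under unloading, the healing ligament read the same 2 probe sets of Eno1 and Pgam1 lower than the loaded healing ligament. Of the 7 tested members 0 rose and 2 fell in unloaded against loaded healing. Limma called 1.62% of all tested probe sets, 0.763% higher and 0.858% lower. Eno1 fell 2.31-fold on X02610_g_at (log2 -1.21 ± 0.22, limma adjusted p = 0.0255), and its call was lost without any 1 array of either loaded group or of unloaded healing, with adjusted p between 0.0511 and 0.233. Pgam1 fell 3.60-fold on S63233_g_at (log2 -1.85 ± 0.22, limma adjusted p = 0.00266), and without loaded healing 1 the log2 difference was -1.69 (adjusted p = 0.0582). This comparison shares the loaded healing arrays with the previous one, so the opposite signs are not 2 independent observations.

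The other members were not called between the healing groups. Pgam1 on rc_AI169417_s_at had the largest log2 difference of the members, -1.89 ± 0.66, without overlap between the groups (limma adjusted p = 0.279). On S63233_at it was -0.01 ± 0.19 (95% interval -0.43 to 0.42), Pkm gave -0.30 ± 0.23 (interval -0.81 to 0.22), Ldhb -0.26 ± 0.43 and Aldoa 0.53 ± 0.88. The GAPDH controls were higher in unloaded than in loaded healing by 1.09 ± 0.23, 0.92 ± 0.25 and 0.99 ± 0.23 log2 units at the 5′, middle and 3′ parts. None of the 3 passed (limma adjusted p = 0.0535, 0.131 and 0.0770), although the groups did not overlap. The median over the 7 members was -0.30 and over all tested probe sets 0.06.

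**Figure D3:**
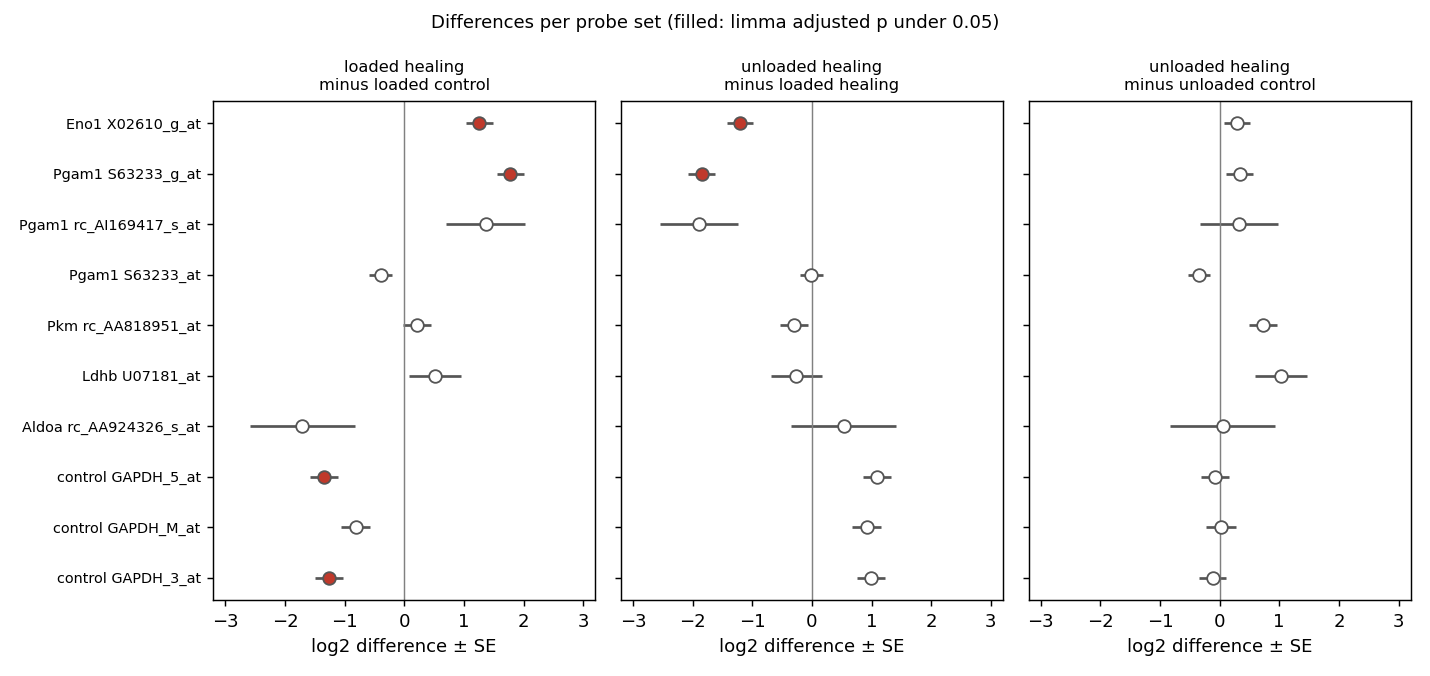
Log2 difference with its SE (bars) for the 7 tested member probe sets and the 3 GAPDH controls in loaded healing minus loaded control, unloaded healing minus loaded healing, and unloaded healing minus unloaded control, where filled points passed limma's adjusted threshold of 0.05. Eno1 X02610_g_at (1.26, then -1.21) and Pgam1 S63233_g_at (1.78, then -1.85) pass in the first and second panels, and the GAPDH controls lie on the opposite side of 0 in both.

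Unloaded healing ligaments and loaded controls, which differ in both injury and loading, gave no call in any tested member. Here limma called 0 of 7 members and 0.0763% of all tested probe sets, 0.0572% higher and 0.0191% lower. Eno1 on X02610_g_at differed by 0.05 ± 0.22 log2 units (95% interval -0.44 to 0.54) and Pgam1 on S63233_g_at by -0.07 ± 0.22 (interval -0.57 to 0.43). These intervals leave out differences as large as those measured for loaded healing against loaded control. The closest to the threshold was Pgam1 on S63233_at, at -0.40 ± 0.19 (limma adjusted p = 0.900). Aldoa had the largest difference, at -1.18 ± 0.88 (interval -3.14 to 0.79). The groups did not overlap for Aldoa, for Ldhb on U07181_at, or for Pgam1 on S63233_at and S63233_g_at. They overlapped for the other tested members.

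In unloaded rats, healing against control ligaments, 0 of 7 members passed the test. Over all tested probe sets limma called 7.46%, 6.41% higher and 1.05% lower. With 7 members, a count of 0 cannot be told apart from that share. Closest to the threshold were Pkm, at log2 0.73 ± 0.23 (limma adjusted p = 0.102), and Ldhb on U07181_at, at 1.03 ± 0.43 (adjusted p = 0.229). Neither probe set's groups overlapped. The second Ldhb probe set, U07181_g_at, gave -0.29 ± 0.77 without the filter, with overlapping groups. Eno1 on X02610_g_at gave 0.29 ± 0.22 with overlapping groups and Pgam1 on S63233_g_at gave 0.34 ± 0.22. Pgam1 on S63233_at was at -0.35 ± 0.19 and passed only with quantile normalization (-1.36, limma adjusted p = 0.000116). The 3 GAPDH controls lay between -0.12 and 0.02 log2 units, with adjusted p of at least 0.823 in limma.

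Between the control groups, all 7 tested members read lower in unloaded than in loaded controls, while 64.8% of all tested probe sets read higher. Of the members 0 passed. Limma called 6.81% of all tested probe sets, 6.22% lower and 0.591% higher, and the median over all was 0.23, against -0.77 for the members. On the unloaded control arrays the brightest 1% of probe sets began at 5494.1 and 5584.5. On all other arrays it began between 9218.3 and 11288.6. Eno1 X02610_g_at, Pkm and Pgam1 on S63233_at and S63233_g_at lay at or above the 96.5 percentile of mean signal. The other tested members lay between the 49 and 61.2 percentile. The part of brightness in the members' lower readings was not tested. Pkm had the lowest adjusted p of the members, at log2 -0.81 ± 0.23 (limma adjusted p = 0.0776), without overlap. Larger but more variable differences were those of Aldoa, at -1.23 ± 0.88, and Pgam1 on rc_AI169417_s_at, at -0.86 ± 0.66. Pgam1 on S63233_at was at -0.06 ± 0.19 and changed sign with quantile normalization (0.90, limma adjusted p = 0.00255), so its direction here depends on the scaling. Eno1 on X02610_g_at was at -0.24 ± 0.22 and ranged from -0.48 to 0.43 over 19 alternatives, so its sign depended on the setting too.

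The difference between healing and control ligaments was not the same in unloaded and loaded rats for 1 of 7 members. Only the loaded controls had sham surgery, so loading and sham surgery cannot be told apart in this interaction. The interaction, healing minus control under unloading less healing minus control under loading, was -1.44 ± 0.32 for Pgam1 on S63233_g_at (limma adjusted p = 0.0259), where limma called 4.84% of all tested probe sets, 0.324% lower and 4.52% higher. For Eno1 on X02610_g_at it was -0.97 ± 0.31 and did not pass (adjusted p = 0.163), though it did with quantile normalization (-1.46, adjusted p = 0.0167) and spike-in scaling (-1.56, adjusted p = 0.0430). The call of Pgam1 was lost when 7 of the 8 arrays were left out singly, the exception being unloaded control 2, with adjusted p between 0.0508 and 0.138. For the GAPDH controls the interaction was 1.27 ± 0.33, 0.84 ± 0.35 and 1.14 ± 0.33 at the 5′, middle and 3′ parts, and none passed (limma adjusted p = 0.0660, 0.333 and 0.0999).

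Of a list of 35 other genes of glycolysis and glucose flux, 27 had a probe set of their own and 17 were tested, each by its brightest probe set. Limma called 0 of 17 in loaded healing against loaded control, with a median log2 difference of 0.28 against -0.03 for all. In unloaded against loaded healing 0 rose and 1 fell. That gene was Slc2a1, the GLUT1 glucose transporter, which read 51.8 and 291.3 in unloaded healing, 2247.1 and 2242.1 in loaded healing, 203.2 and 430.7 in unloaded controls, and 256.1 and 333.9 in loaded controls. Both loaded healing arrays lay far above the rest, as they did on Eno1 X02610_g_at and Pgam1 S63233_g_at but not on Eno1 X02610_at or Pgam1 S63233_at. Its log2 difference was -3.66 ± 0.61 between the healing groups (limma adjusted p = 0.0181) and 2.76 ± 0.61 between the loaded groups (adjusted p = 0.0548), and its interaction of -3.68 ± 0.86 passed (adjusted p = 0.0369).

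Pgk1, phosphoglycerate kinase, works between Gapdh and Pgam1 and was split between its probe sets. On rc_AA892797_at it read 439.4 and 459.8 in unloaded healing, 2453.4 and 1811.8 in loaded healing, 44.4 and 26.0 in unloaded controls, and 622.2 and 536.4 in loaded controls. On that probe set it fell in unloaded against loaded healing (log2 -2.12 ± 0.42, limma adjusted p = 0.0360), and its rise of 1.79 ± 0.42 in loaded healing did not pass (adjusted p = 0.0677). Against loaded controls, unloaded controls were also called lower on it (limma adjusted p = 0.00096). Unloaded healing was called higher than unloaded controls (log2 2.62 ± 0.42, limma adjusted p = 0.00226). However, its unloaded control readings lay below the offset of 45.8, which therefore sets the size of both differences. The list count used the other probe set of Pgk1, M31788_g_at, which had the higher mean log2 signal, so the calls on rc_AA892797_at are not in it. M31788_g_at read 408.1 to 590.4 on all arrays and gave -0.04 ± 0.38 between the healing groups.

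The muscle mutase Pgam2 read 1656.8 and 1249.4 in unloaded healing, 1966.9 and 1116.4 in loaded healing, 477.1 and 148.2 in unloaded controls, and 1069.7 and 846.4 in loaded controls. It was called in unloaded healing against unloaded control (log2 2.22 ± 0.48, limma adjusted p = 0.0166) and not between the loaded groups (0.62 ± 0.48, adjusted p = 0.742). Slc2a4, the insulin-responsive glucose transporter of muscle and fat, was called higher in unloaded than in loaded controls (log2 2.05 ± 0.40, limma adjusted p = 0.00865). It read 989.4 and 947.0 in unloaded controls, against 184.6 and 213.1 in loaded controls on D28561_s_at. Its second probe set, rc_AA799760_s_at, gave 0.66 ± 0.58 and was not called (limma adjusted p = 0.601).

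Markers of other cells also differed between the groups, and not all in the same way. The summed signal of 6 macrophage markers was 6037.7 to 6647.6 in unloaded healing, 22446.5 to 24490.1 in loaded healing, 3692.1 to 3738.3 in unloaded controls, and 5296.6 to 5368.9 in loaded controls. Of the 4 tested, Lyz2, Lgals3 and Ctss rose in loaded healing against loaded control and fell in unloaded against loaded healing, and Cd14 was not called. The sum was highest in the group where Eno1 X02610_g_at and Pgam1 S63233_g_at were highest, which was not so for Eno1 X02610_at and Pgam1 S63233_at, and the part of macrophages in that result was not tested. Itgam and Csf1r, which define macrophages more narrowly, were below the filter, with Csf1r at 56.2 to 71.5 in unloaded healing, 64.5 to 74.0 in loaded healing, 81.3 to 96.5 in unloaded controls and 95.2 to 99.8 in loaded controls. No marker of the list read 0.

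The summed signal of 10 skeletal muscle markers, which could come from attached muscle, was 12281.0 to 12484.1 in unloaded healing, 13239.1 to 15596.4 in loaded healing, 4893.4 to 5548.1 in unloaded controls, and 9372.8 to 9993.6 in loaded controls. Unlike Eno1 X02610_g_at and Pgam1 S63233_g_at, this sum was higher in unloaded healing than in loaded controls without overlap. Of 9 tested markers 1, Acta1, rose and 0 fell in loaded healing. In unloaded against loaded healing 0 rose and 1, Myh4, fell (log2 -1.42 ± 0.26, limma adjusted p = 0.0255). Against loaded controls, Myh4 gave 0.99 ± 0.26 in loaded healing (limma adjusted p = 0.116) and -0.43 ± 0.26 in unloaded healing (adjusted p = 0.953). The part of muscle RNA in the members' values was not tested. The sum of 4 erythroid markers was highest in unloaded healing, at 8234.6 to 9377.1, against 5120.3 to 6638.5 in loaded healing, 3339.6 to 4584.6 in unloaded controls and 3317.1 to 5621.8 in loaded controls. The sum of 4 adipocyte markers was 8486.1 to 12503.7 in unloaded healing, 14045.4 to 15029.3 in loaded healing, 13535.0 to 13868.9 in unloaded controls and 10956.7 to 12764.1 in loaded controls. Of its 2 tested markers Lpl rose in loaded healing against loaded control and fell in unloaded against loaded healing. Of 4 endothelial markers 0 were called in either comparison, and their sums overlapped among the unloaded healing, loaded healing and loaded control groups, while those of unloaded controls, at 5056.1 to 6013.5, overlapped with unloaded healing and loaded controls. The part of these cells in the members' values was not tested.

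**Figure D4:**
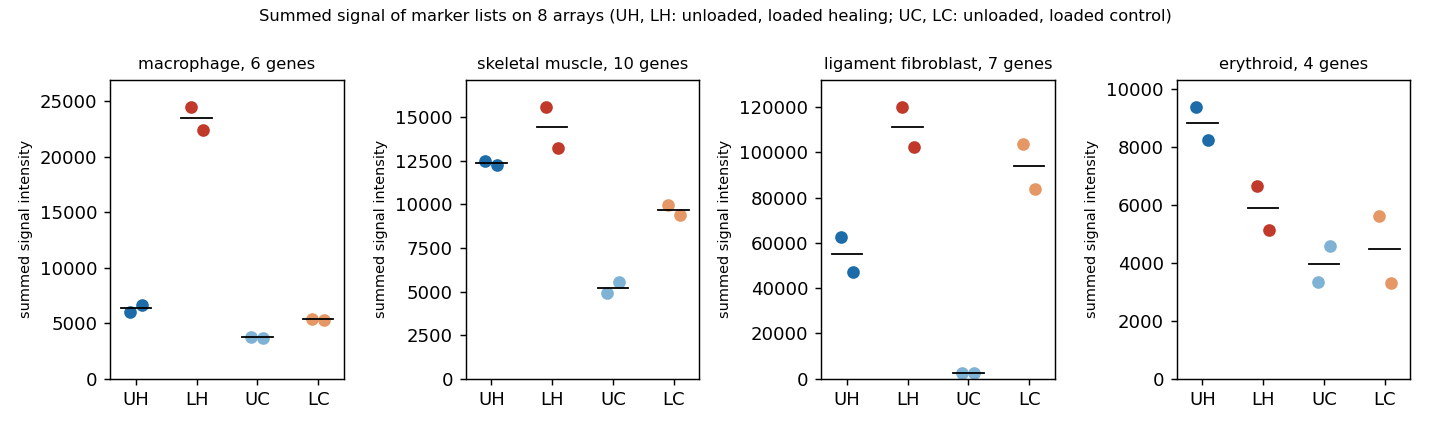
Summed signal intensity (linear axis from 0) of the brightest probe set per marker gene for 4 lists on every array, with groups abbreviated UH (unloaded healing), LH (loaded healing), UC (unloaded control) and LC (loaded control), points for arrays and lines for group means. Macrophage markers peak in loaded healing at 22446.5 to 24490.1, and ligament fibroblast markers are lowest on the unloaded control arrays, at 2311.3 to 2444.5.

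Genes with the most similar profile were sought for the brightest tested probe set of each gene, by the root mean squared difference of centred log2 signal over the 8 arrays among 4168 candidate probe sets. For Eno1 they were Acta2, smooth muscle actin, at 0.131 and Atp5po, a subunit of mitochondrial ATP synthase, at 0.177, against a median of 0.848 over all candidates and a spread (SD) of 0.605 of Eno1 itself. For Pkm they were Man2b1, a lysosomal mannosidase, at 0.163 and Cnn3, an actin-binding calponin, at 0.165. For Ldhb they were Uqcr11, a subunit of respiratory complex III, at 0.159 and Tsc22d1 at 0.168. For the nearly flat Pgam1 probe set S63233_at they were Dock8 at 0.116 and Rab11fip5 at 0.125, where its own SD was 0.228. For Aldoa they were Atp6v0a1 at 0.413 and Clba1 at 0.518, where its own SD was 1.03. The measure grows with a probe set's own spread, so these values do not rank the members.

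**Figure D5:**
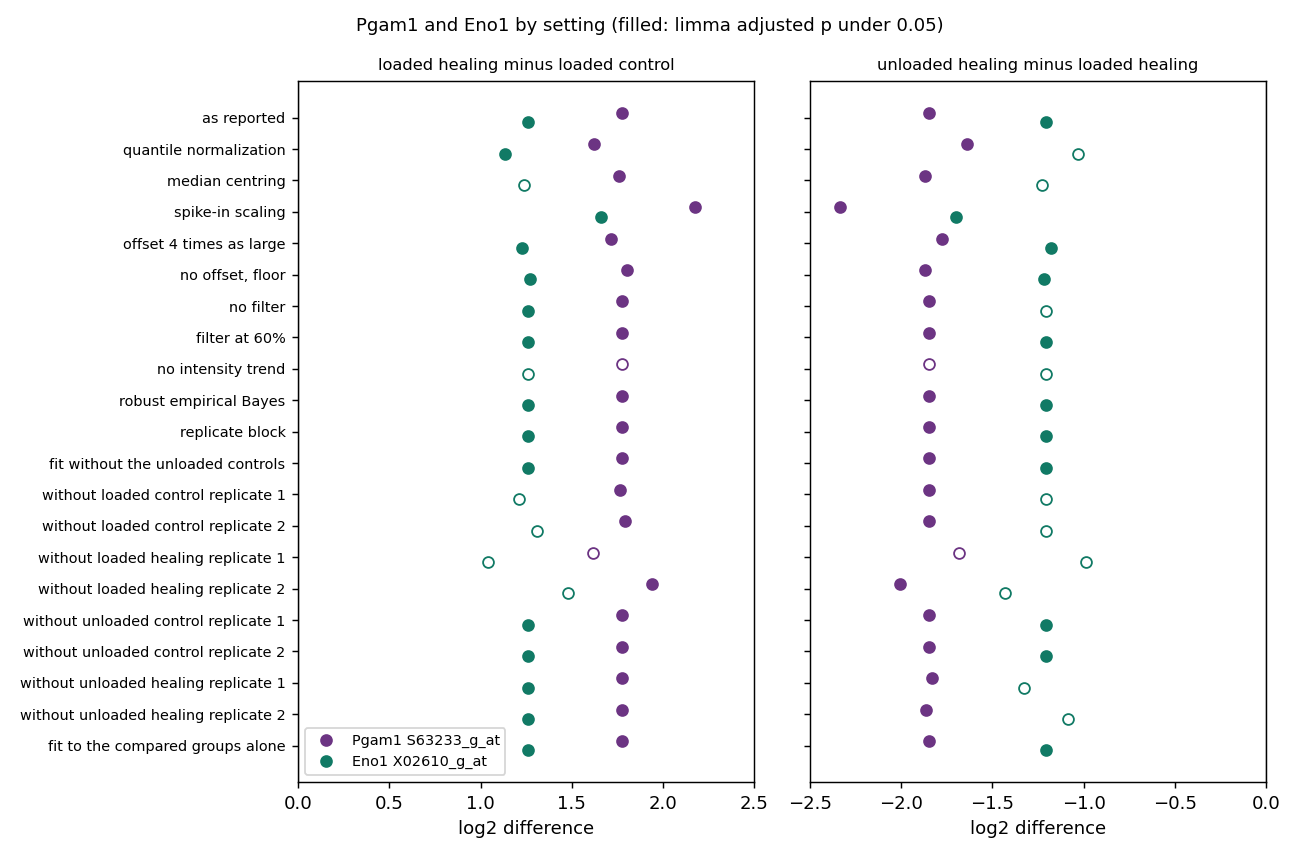
Log2 difference of Pgam1 S63233_g_at and Eno1 X02610_g_at under each setting (rows), for loaded healing minus loaded control (left) and unloaded healing minus loaded healing (right), where filled points passed limma's adjusted threshold of 0.05 and the axes start at 0. Direction was kept in every row, with Pgam1 between 1.62 and 2.18 and Eno1 between 1.04 and 1.66 on the left, while the Eno1 call was lost in 6 of 20 alternatives on the left and 10 of 20 on the right.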

How the data were processed

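The authors' deposited table holds linear signal intensity per probe set for 8799 probe sets on 8 arrays. The values had been scaled between arrays before deposit, since the 2% trimmed mean was 500.3 to 500.6 on every array. Not given in the sources used here were the software and the probe summary. No column was left out.

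Gene symbols were taken from the array's annotation (7018 probe sets with 1 symbol, 308 with several, 1473 with none). Of those with 1 symbol 6994 matched RefSeq genes of GRCr8 by Entrez identifier, and 0 symbols changed. Without the 59 control probe sets, log2 of the intensity plus 45.8 (the 10th percentile) was taken and the dimmest 40% were removed, leaving 5244. Limma 3.58.1 under R 4.3.3 estimated a mean for each group (intensity trend, 4 residual and 5.81 prior degrees of freedom, two-sided tests, Benjamini-Hochberg adjustment), and the model was tested on simulated data.

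The members, lists and settings were chosen with earlier results of these data known. The promoter motif and the fit with controls kept were chosen after values were seen. All members were named, other pathway genes where called, and for likeness the 2 nearest probe sets per gene. Alternatives were 3 other scalings, the offset, filter, variance prior, replicate block, arrays in the fit, and leaving out each array. The number of arrays limits precision.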

Additional observations from a re-analysis of the deposited data

Results flagged for a closer look

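Pgam1 on probe set S63233_g_at is listed because its difference between healing and control ligaments was not the same in unloaded and loaded rats by the interaction term, at -1.44 ± 0.32 log2 units (limma adjusted p = 0.0259, and 0.00838 to 0.192 over 18 alternatives). Healing minus control was 0.34 ± 0.22 in unloaded rats and 1.78 ± 0.22 in loaded rats. Only the loaded controls had sham surgery, so loading and sham surgery cannot be told apart here. This difference rests in part on the unloaded control arrays, which stood apart from the rest. On its other probe sets the interaction was -1.04 ± 0.93 (rc_AI169417_s_at) and 0.05 ± 0.27 (S63233_at), and neither passed.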

How the results depend on the processing

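Against 2 member probe sets called in loaded healing minus loaded control, limma called 1 with median centring, 0 without an intensity trend in the variance prior, and 0 to 2 when 1 array was left out. Against 2 in unloaded minus loaded healing, it called 1 with quantile normalization, 1 with median centring, 1 without a filter, 0 without an intensity trend, and 0 to 2 when 1 array was left out. Against 1 for the interaction, it called 3 with quantile normalization, 2 with spike-in scaling, 0 with median centring, 0 without a filter, 0 without an intensity trend, and 0 to 1 when 1 array was left out. Against 0 in unloaded healing minus unloaded control and 0 in unloaded minus loaded control, it called 1 each with quantile normalization, in both cases Pgam1 S63233_at. Pgam1 S63233_at reversed with quantile normalization in unloaded minus loaded control (0.90) and in the interaction (-0.92), and the cause was not tested. In unloaded healing minus loaded control 0 were called under every alternative run. Leaving out an array assumes that the lone remaining one varies as those of the other groups do.

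Over all probe sets, the count called ranged over the settings from 27 to 126 against 106 in loaded healing minus loaded control, from 16 to 137 against 85 in unloaded minus loaded healing, from 306 to 622 against 391 in unloaded healing minus unloaded control, from 281 to 590 against 357 in unloaded minus loaded control, from 0 to 7 against 4 in unloaded healing minus loaded control, and from 215 to 331 against 254 for the interaction. Spike-in scaling moved the median of all probe sets to 0.34 in loaded healing minus loaded control, with 84 higher and 22 lower against 54 and 52, to -0.40 in unloaded minus loaded healing, with 18 and 119 against 40 and 45, and to -0.70 for the interaction. Quantile normalization gave 388 higher and 234 lower in unloaded healing minus unloaded control, against 336 and 55, and 205 higher and 385 lower in unloaded minus loaded control, against 31 and 326. Median centring moved the median of all to -0.03, -0.02 and 0.06 in unloaded healing minus unloaded control, unloaded minus loaded control and the interaction, against -0.23, 0.23 and -0.16.

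The labels tie samples of equal number together by the number alone. Their deviations from the group means correlated across probe sets at 0.159, 0.184 and 0.204 among unloaded healing, loaded healing and loaded control, and at 0.001 to 0.014 with unloaded control. In those first 3 groups the array medians were also alike by number, at 250.8, 245.2 and 238.7 for number 1 and 286.2, 282.3 and 280.1 for number 2, a hint from the data and not from the design. With the replicate block the members called were 2, 2 and 1 in loaded healing minus loaded control, unloaded minus loaded healing and the interaction, as without it. The block gave 123, 102 and 270 calls over all probe sets, against 106, 85 and 254.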
